A study of Rattus norvegicus with 4 samples.

Results

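The 8 genes described here encode enzymes that break down the amino acid tryptophan along the kynurenine route: Ido1, Tdo2, Afmid, Kmo, Kynu, Haao, Qprt and Aadat. They were chosen by name, with values of these tumours known, and every probe set (a group of array probes read as 1 value) whose annotation named 1 of them alone was taken. This gave 11 probe sets for 8 genes, out of 31099 probe sets and 14217 named genes on the array. One-colour oligonucleotide arrays were used to measure transcripts in 4 mammary cancers of female Sprague-Dawley rats, an outbred stock. All 4 cancers form 1 group: each rat received whole-body carbon ions once, 0.5 Gy at an age of 7 weeks (290 MeV/u, spread-out Bragg peak of 6 cm), and ate an AIN-76A diet with corn oil at 23.5% from an age of 9 weeks. No tumour of an unirradiated rat, normal gland or other diet was analysed here, and the values therefore carry no measure of what radiation or diet did. The comparison open to these data is between individual tumours, and the labels do not say whether they came from separate rats. With 1 array per tumour there is no replicate of a tumour, no spread against which neighbouring tumours in an order can be judged, and no p-value.

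Kynurenine formation begins when Ido1 (indoleamine 2,3-dioxygenase) or Tdo2 (tryptophan 2,3-dioxygenase) opens the indole ring of tryptophan, and Afmid (formamidase) removes the formyl group from the product. Kynurenine then has several fates. Aadat (aminoadipate and kynurenine aminotransferase) turns it into kynurenic acid, Kmo hydroxylates it, and Kynu, Haao and Qprt carry the carbon skeleton on towards quinolinic acid and nicotinamide adenine dinucleotide (NAD). Liver is known for Tdo2 and for the complete route to NAD, while Ido1 is known as an interferon-inducible enzyme of antigen-presenting cells and some tumours.

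Values are log2 of the deposited signal plus a pseudocount of 16, and a range is the highest minus the lowest tumour on that scale. A range of 1 log2 is a 2-fold difference for a strong signal and understates the ratio for a weak one. Genes whose mean reached 7.81 log2, the median of all probe-set means and a signal of about 209, are called expressed. Signals of different probe sets depend on their probes as well as on transcript amount, so tumours are compared within a probe set only. The arrays had the same trimmed mean signal to within rounding (500.1), and their median log2 values lay between 7.77 and 7.89. Epithelial markers were read beside the label of mammary tissue. Of 10 luminal genes 8 were expressed, all but Esr1 and Foxa1, and all 7 basal genes were, beside 66.1% of all named genes. These counts describe epithelial transcripts and do not test that the tissue is mammary.

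Aadat was the member that differed most between the cancers. It was strong in tumours 2 and 3 and weak in tumours 1 and 4, while the other 7 genes stayed within a range of 2 log2. Only Aadat and Qprt passed the expression filter, and Ido1, Tdo2, Afmid, Kmo, Kynu and Haao had means under it, while 66.1% of all named genes passed. Aadat passed through its high tumours, since it was under the filter level in tumour 1 and just above it in tumour 4. A range of at least 1 log2 was seen in 4 of the 8 genes (Aadat, Haao, Afmid and Tdo2), beside 21.1% of all named genes and 38.1% of named genes under the filter. A range of at least 2 log2 was seen in Aadat alone, beside 3.99% of all named genes. The members were picked with these values in view, so nothing is read from these shares. In bulk tissue, fewer cells of a type and less RNA per cell cannot be told apart, here and below.

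The highest tumour was not the same one across the pathway. Tumour 1 was highest for Tdo2, Kmo and Kynu, tumour 2 for Aadat and Qprt, tumour 3 for Haao, and tumour 4 for Afmid. Ido1 was highest in tumour 4, or in tumour 2 once the arrays were rescaled, and the dimmer probe set of Qprt was highest in tumour 4. Tumours 1 to 4 were highest for 3, 2, 1 and 2 members, beside 29.9%, 23.2%, 22.4% and 24.5% of all named genes. These counts place Ido1 in tumour 4. With so few members the split is near that background, so nothing about the pathway is read from it. In 3 genes, 1 tumour lay at least 1 log2 above each of the others: Aadat in tumour 2, Haao in tumour 3 and Afmid in tumour 4. This pattern occurred in 3.48% of all named genes. With a pseudocount of 64 only Aadat kept it, and the gaps of Haao and Afmid became 0.98 and 0.86. The call of Afmid rested on 1 of its 3 probe sets, since the gaps on the others were 0.97 and 0.77, and it was lost with probe sets averaged (0.95). No member lay 1 log2 below all other tumours, a pattern of 3.62% of named genes.

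**Figure D1:**
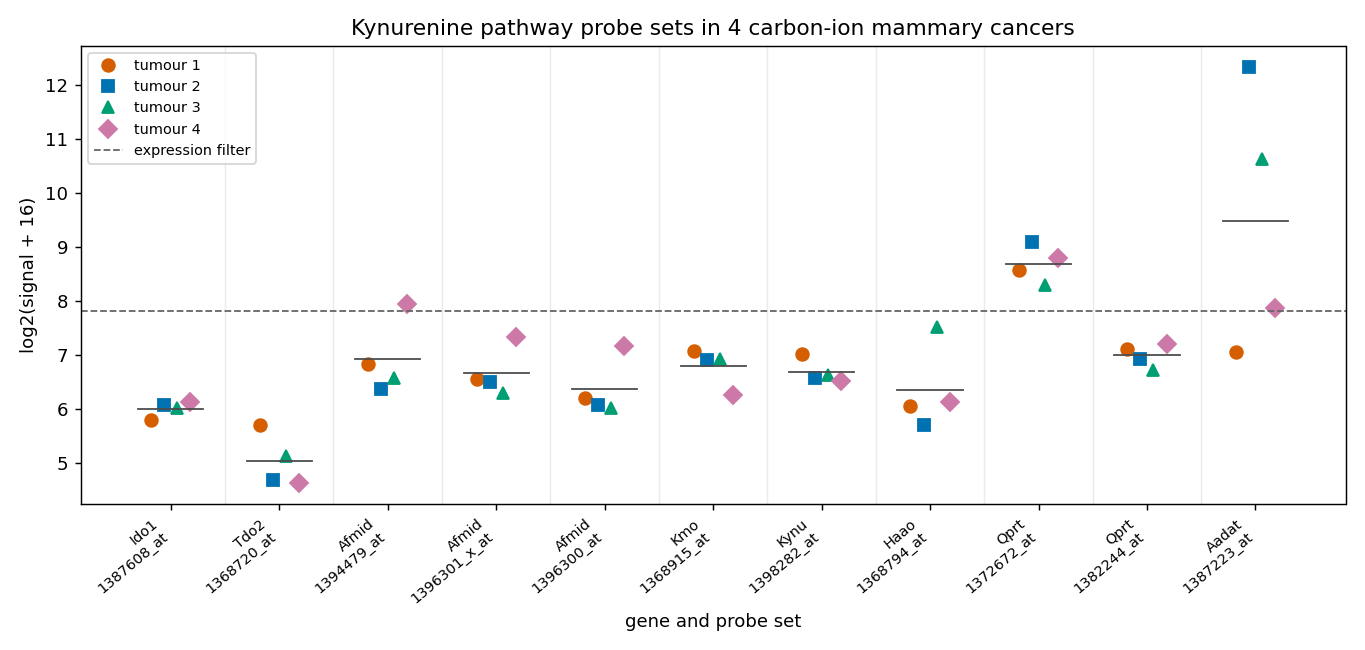
Each point is 1 tumour's level, log2(signal + 16), on 1 of the 11 probe sets of the 8 kynurenine genes, ordered along the pathway with Aadat last; the short line is the mean of the 4 tumours and the dashed line the expression filter at 7.81. Aadat spans 7.06 to 12.33, while the tumours lie close together for Ido1 (5.80 to 6.14) and Kynu (6.52 to 7.02).

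The promoters of 3 members are shown because Aadat carries the largest difference and because Kmo and Tdo2 hold letters of known control elements. RefSeq's promoter table, assembly GRCr8, held 7 of the 8 genes (Ido1 was not matched), and the 250 bases before each start were searched on both strands for 4 motifs. These were GCGTG, the core bound by the aryl hydrocarbon receptor, GAAANNGAA, bound by interferon regulatory factors, TTCNNNGAA, the gamma-activated site, and TATAAA, the TATA box. The third reads the same on either strand and was counted once per place. Capitals mark the matches, and each run is written 5′ to 3′ on the strand of the gene.
Aadat: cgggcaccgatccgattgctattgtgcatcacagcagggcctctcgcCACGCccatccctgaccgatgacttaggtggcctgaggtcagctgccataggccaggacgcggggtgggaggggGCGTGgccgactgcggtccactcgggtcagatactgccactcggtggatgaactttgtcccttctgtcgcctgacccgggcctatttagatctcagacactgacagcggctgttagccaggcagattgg
Kmo: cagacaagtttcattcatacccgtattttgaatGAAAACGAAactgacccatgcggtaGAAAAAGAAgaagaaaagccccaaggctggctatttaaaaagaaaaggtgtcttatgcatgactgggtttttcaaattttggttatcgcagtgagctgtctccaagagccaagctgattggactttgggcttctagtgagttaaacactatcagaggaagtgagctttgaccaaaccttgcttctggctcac
Tdo2: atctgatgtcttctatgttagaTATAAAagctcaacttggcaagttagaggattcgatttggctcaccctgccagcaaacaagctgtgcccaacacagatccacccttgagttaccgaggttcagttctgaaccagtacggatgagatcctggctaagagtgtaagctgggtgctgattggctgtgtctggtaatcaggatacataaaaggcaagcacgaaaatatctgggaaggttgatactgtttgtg
The Aadat window is chr16:34555181-34555430, minus strand, that of Kmo is chr13:90089271-90089520, plus strand, and that of Tdo2 is chr2:169585587-169585836, minus strand. Aadat held 2 matches to GCGTG, 1 on each strand, starting 203 and 129 bases before the start, and no other searched member held one. That core occurred in 25.9% of 33469 promoters, so it is common. Kmo was alone among the members in holding GAAANNGAA, with 2 matches that start 217 and 192 bases before the start, beside 8.12% of all promoters. Tdo2 held TATAAA at 228 bases before the start, far from the usual place of a TATA box, beside 12.9% of all promoters. No member held TTCNNNGAA, which occurred in 7.67% of promoters. The Aadat window was richer in G and C than most, 62.0% against a median of 51.2%, and held 16 CG pairs against a median of 5, while Kmo had 42.0% and 4 pairs and Tdo2 45.2% and 4 pairs. A match describes letters only, and no binding was measured.

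The enzymes that open the ring were weak in every tumour. Ido1 had signals of 39.8, 51.3, 49.1 and 54.4 in tumours 1 to 4, or 5.80, 6.07, 6.03 and 6.14 log2. Tumour 1 was lowest, the other 3 lay within 0.11 of each other, and the range of 0.34 was under the median of 0.80 for named genes under the filter. Which of tumours 2 and 4 was highest changed with the scaling of the arrays, so no highest tumour is read for Ido1. Tdo2 had signals of 36.4, 9.71, 19.1 and 8.74, or 5.71, 4.68, 5.13 and 4.63 log2, with a mean of 5.04 ± 0.50 (SD, n = 4). Tumour 1 was the highest and tumours 2 and 4 were nearly equal. Its range was 1.08 log2, and the ratio of the highest to the lowest signal was 4.16. At so weak a signal the range depends on the pseudocount, being 1.94 with a pseudocount of 1 and 0.46 with one of 64, and without tumour 1 it was 0.50.

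Afmid, the formamidase of the second step, was highest in tumour 4 on all 3 of its probe sets. The brightest measured 6.84, 6.37, 6.58 and 7.94 log2 in tumours 1 to 4, a mean of 6.93 ± 0.70 (SD, n = 4) and a range of 1.57. Tumour 4, at a signal of 230.1 against 66.9 to 98.5, was the only one above the filter level. The other probe sets, which the annotation gives the same sequence accession and which are therefore not independent of each other, gave ranges of 1.16 and 1.04, with tumour 4 at 7.18 and 7.34 and the other tumours between 6.02 and 6.57. Tumours 1 to 3 thus sat close together on each of the 3. Their lowest tumour was number 2 on the brightest probe set and number 3 on the others. Without tumour 4 the range of Afmid was 0.47.

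Kmo and Kynu, which act on kynurenine itself, were both weak, with small differences and the highest value in tumour 1. Kmo, the hydroxylase of the outer mitochondrial membrane, measured 7.08, 6.90, 6.92 and 6.26 log2 in tumours 1 to 4, from signals of 119.6, 103.8, 105.4 and 60.8. Tumours 1 to 3 lay within 0.18, and tumour 4 was apart below them, so that the range of 0.82 became 0.18 without tumour 4. The lead of tumour 1 for Kmo, 0.16 log2, shrank to 0.03 with a median shift of the arrays and 0.01 with quantile normalization. Its highest tumour is therefore uncertain. Kynu, kynureninase, measured 7.02, 6.58, 6.63 and 6.52 log2, from signals of 114.0, 79.4, 83.2 and 75.5. Here tumours 2 to 4 lay within 0.12 and tumour 1 was apart above them, so that the range of 0.51 became 0.12 without tumour 1. In both genes every tumour was under the filter level, so the differences were between weak signals.

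Macrophages are known to express Kmo and Kynu, and the values of their markers stand beside these. Of 12 macrophage and myeloid markers 10 were expressed and 9 were highest in tumour 1. Over all named genes, 29.9% were highest in tumour 1, 25.8% lowest in tumour 3 and 23.3% lowest in tumour 4. Their summed signal was 21172, 13104, 8058 and 12835 in tumours 1 to 4. Cd163 and Itgam were under the filter in all 4. Tumour 3, which had the lowest sum and the lowest value of 9 of the 12 markers, was at 6.92 for Kmo and 6.63 for Kynu, above tumour 4 in each. Of 8 fibroblast markers 7 were expressed, all 8 were lowest in tumour 4, and their summed signal was 38967, 29769, 35162 and 12156. Kmo, Kynu and Tdo2 were lowest in tumour 4 too, all at signals under the filter level. For Kynu and Tdo2 the gap to the next tumour was only 0.06 log2. The part of these cell types in the results was not tested.

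**Figure D2:**
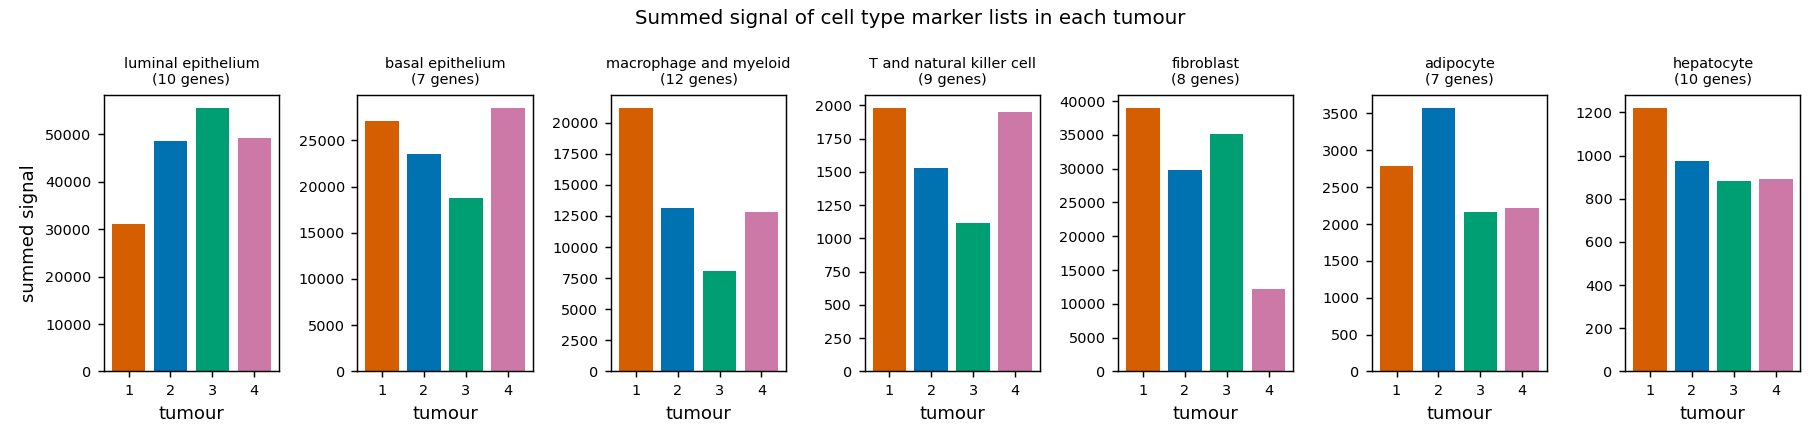
Bars give the summed signal, on a separate axis per panel, of 7 cell type marker lists in tumours 1 to 4, with the brightest probe set of each gene. The macrophage sum is highest in tumour 1 (21172) and lowest in tumour 3 (8058), and the fibroblast sum is lowest in tumour 4 (12156).

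Haao and Qprt act at the end of the route, where Haao forms the precursor of quinolinic acid and Qprt converts quinolinic acid to a nicotinic acid nucleotide. Haao was highest in tumour 3 and measured 6.07, 5.71, 7.53 and 6.13 log2, from signals of 51.1, 36.3, 168.9 and 54.0. Its mean was 6.36 ± 0.80 (SD, n = 4). Tumour 3 stood 1.40 above the next tumour but remained under the filter level, and without it the range fell from 1.82 to 0.42. The deposited signals of the highest and lowest tumour had a ratio of 4.65.

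Qprt was the only member above the filter level in all 4 tumours. Its brighter probe set had signals of 367.0, 528.8, 299.6 and 430.9, or 8.58, 9.09, 8.30 and 8.80 log2, with a mean of 8.69 ± 0.33 (SD, n = 4). The range was 0.79, against a median of 0.47 over all expressed genes. The dimmer probe set, under the filter, measured 7.12, 6.93, 6.72 and 7.21. Tumour 3 was lowest on both, but the highest was tumour 2 on the brighter and tumour 4 on the dimmer, so the order of the other 3 tumours is uncertain.

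Aadat, on its single probe set, had signals of 117.8, 5144, 1557 and 219.5 in tumours 1 to 4. On the log2 scale these were 7.06, 12.33, 10.62 and 7.88, with a mean of 9.47 ± 2.44 (SD, n = 4). All 4 levels were separated by at least 0.82 log2, in the order tumour 2, 3, 4 and 1. The range was 5.27 log2, a 43.7-fold ratio of deposited signals, and tumour 2 stood 1.71 above tumour 3. The level in tumour 1 was under the filter, where signal need not come from the transcript, so the size of the ratio is uncertain. The range stayed between 4.84 and 5.44 over the other pseudocounts and scalings. It was 4.45 without tumour 1 and 3.56 without tumour 2, and still 5.27 without tumour 3 or 4. No other probe set named Aadat, so its pattern has no check at the level of probes.

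Of 63 cell type markers, 3 ran through the tumours in the order of Aadat, a count near the share of 6.25% over all named genes. All 3 were luminal. They were Pgr, the progesterone receptor (8.11, 10.82, 10.30 and 9.62 in tumours 1 to 4), Gata3, a luminal transcription factor (10.59, 11.99, 11.89 and 11.41), and Foxa1, another, which was under the filter (4.50, 6.62, 6.40 and 6.10). The second probe set of Gata3 was highest in tumour 3. No summed list followed that order. The luminal sum was 31110, 48531, 55537 and 49272 in tumours 1 to 4. Of the 10 luminal markers 3 were highest in each of tumours 2, 3 and 4, and 1 in tumour 1. Of the same 10, 9 were lowest in tumour 1, where Aadat was lowest as well, beside 30.3% of all named genes. Tumour 4, with a luminal sum near that of tumour 2, had an Aadat level 4.45 log2 lower. Aadat is abundant in liver and kidney, and liver markers were weak here: 9 of 10 hepatocyte genes were under the filter, with Tat between 4.28 and 4.46 and Apoa1 between 4.15 and 4.82. The exception was Ass1, an enzyme of arginine synthesis made in many tissues, at 9.41, 7.06, 7.68 and 7.36. Alb, albumin, was under the filter on average but measured 5.14, 8.31, 6.51 and 6.78, and both its probe sets were highest in tumour 2 and lowest in tumour 1, as Aadat was. On the dimmer one tumours 1 and 3 were nearly equal (4.68 and 4.72). Unlike Aadat, Alb was lower in tumour 3 than in tumour 4. Of the 10 hepatocyte genes 4 were highest in tumour 2 and 4 were lowest in tumour 1, beside 23.2% and 30.3% of all named genes. With 10 genes, most of them weak, nothing is read from these counts. The adipocyte sum was also highest in tumour 2, at 3574 against 2165 to 2786. The part of these cells in the Aadat result was not tested.

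Among the other 9402 expressed genes, those with the profile most like that of Aadat were Fam111a, Aqp5, Ramp3, Slc7a7 and Asic2. Likeness was the Euclidean distance between profiles centred on their own means over 4 tumours. These 5 had distances of 1.61, 1.76, 1.81, 2.19 and 2.27 log2, against a median distance of 4.19. They were chosen as the smallest distances, so lying under the median follows from the choice. Fam111a, a nuclear protease that restricts viruses, measured 9.06, 12.07, 11.38 and 8.55 in tumours 1 to 4. Aqp5, a water channel of secretory glands, measured 9.24, 12.29, 11.20 and 7.98. Ramp3, a partner of calcitonin-family receptors, measured 8.09, 11.46, 9.21 and 7.33.

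All 5 genes were highest in tumour 2 and next in tumour 3, which their choice by likeness to Aadat favours. Fam111a, Aqp5 and Ramp3 were lowest in tumour 4, not in tumour 1. Slc7a7, a light chain of cationic amino acid transporters, measured 9.05, 11.53, 11.01 and 9.49. Asic2, an acid-sensing ion channel, measured 7.73, 10.33, 10.08 and 8.71, and its second probe set had the same order with a range of 2.11. The other 4 had 1 probe set each. The same 5 genes came out under both other pseudocounts, the median shift and quantile normalization, and 4 of them with probe sets averaged, where Ret replaced Asic2. The choice rested on tumour 2: without it none of the 5 was among the nearest genes, while 3, 3 and 2 were without tumours 1, 3 and 4.

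**Figure D3:**
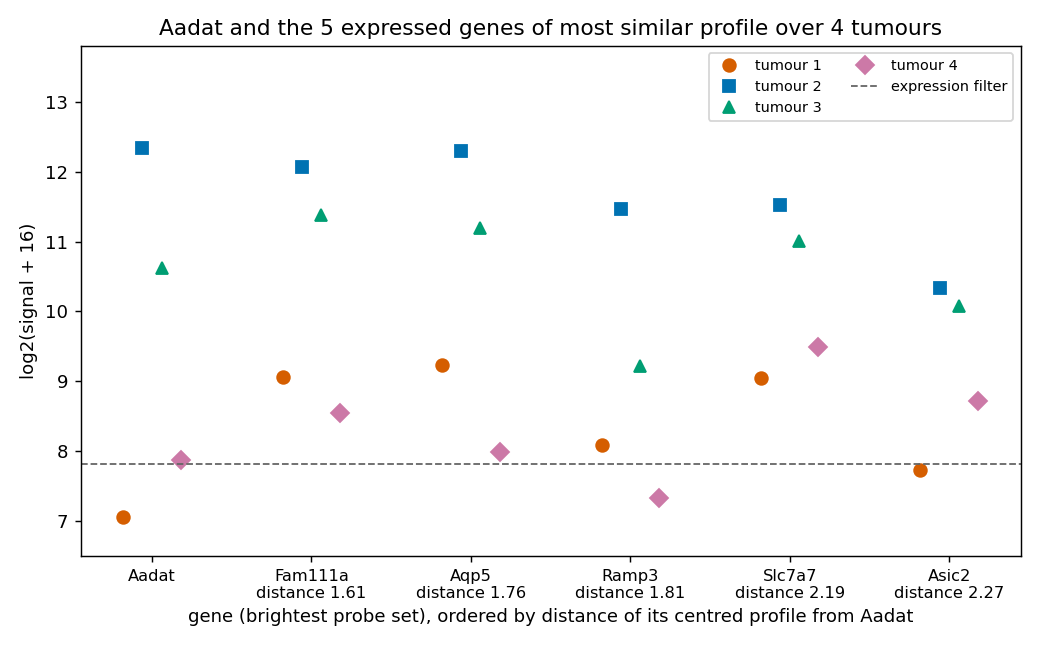
Points give the level, log2(signal + 16), of Aadat and of the 5 expressed genes with the most similar centred profile in each of the 4 tumours, with the distance to Aadat under each name and the expression filter as a dashed line. In all 6 genes tumour 2 is highest and tumour 3 next, which the choice of the 5 by likeness favours, and Aadat has the widest spread (7.06 to 12.33).

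Genes around the kynurenine route were examined in 6 lists with 52 genes, with a named probe set for 46 and expression of 31. Of the 31, 7 had a range of at least 1 log2 (Aass, Dhtkd1, Ahr, Cyp1b1, Irf8, Cxcl9 and Slc7a8), beside 12.4% of all expressed genes, and 2 (Aass and Cyp1b1) one of at least 2 log2, beside 2.42%. The median range was 0.59, against 0.47 over all expressed genes. Without tumour 1 the first count fell from 7 to 2, Ahr and Cyp1b1, while over all expressed genes it fell from 1166 to 540.

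The list of other enzymes on branches of the kynurenine route held 6 genes. Ido2 and Aldh8a1 had no named probe set, and Kyat1, Kyat3 and Got2 were expressed, with none at a range of 1 log2 and a median of 0.59. Kyat1, a further kynurenine aminotransferase, measured 8.75, 9.02, 8.96 and 8.68 in tumours 1 to 4. Kyat3, another, measured 8.99, 8.70, 8.74 and 8.41. Got2, the mitochondrial aspartate aminotransferase, which also accepts kynurenine, measured 11.60, 12.30, 12.32 and 12.04. None of the 3 was both highest in tumour 2 and lowest in tumour 1, as Aadat was, but Got2 came close. Got2 was lowest in tumour 1, and its tumour 3 led tumour 2 by only 0.02 log2. Its dimmer probe set, under the filter, was highest in tumour 2 (7.83), with tumours 1 and 4 nearly equal (both 7.38). Whether Got2 differs from Aadat in its order is therefore uncertain, though its range was only 0.72. Acmsd, which diverts carbon away from quinolinic acid, was under the filter at 6.71, 6.21, 6.41 and 7.54, highest in tumour 4 as Afmid was.

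In NAD synthesis beyond Qprt, all 9 genes were named on the array and 8 were expressed, and none had a range of 1 log2, with a median of 0.54 among those expressed against 0.47 over all expressed genes. A count of 0 among 8 is near the background of 12.4%. The widest were Nadsyn1, NAD synthetase (7.35, 7.74, 8.31 and 7.95), Nnmt, which methylates nicotinamide (7.87, 8.22, 8.45 and 8.77), and Nmnat2, an adenylyltransferase (7.88, 7.52, 8.09 and 8.37). Nadsyn1, at 0.96, came to at least 1 with a pseudocount of 1 or after either rescaling of the arrays.

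The list of tryptophan supply and its other uses also lay near the background. Of 11 genes 9 had a named probe set, 6 were expressed, and among these only Slc7a8, a carrier of large neutral amino acids, had a range of 1 log2, at 8.85, 8.24, 7.92 and 7.47. Slc7a5, the main importer of tryptophan in growing cells, measured 9.33 in tumour 1 and 9.76 to 9.80 in the others. Maob, a monoamine oxidase, lay between 8.28 and 8.63. Slc6a14, a broad amino acid carrier, was under the filter on average but had a range of 2.63, at 5.70, 6.65, 6.12 and 8.33, above the filter level in tumour 4 alone. Tph1 and Tph2, which start serotonin synthesis, had no named probe set.

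Aadat also works in lysine breakdown, where it transaminates aminoadipate, and this list held 6 genes, 4 of them expressed. Aass, which starts the route in mitochondria, measured 9.40, 6.92, 8.36 and 7.33, so that its highest tumour was the lowest for Aadat and its lowest tumour the highest for Aadat. Dhtkd1, which acts just after Aadat, measured 8.48, 8.18, 7.68 and 7.37. Aldh7a1, which acts just before it, measured 11.48, 12.13, 12.16 and 11.68, with tumours 2 and 3 above tumours 1 and 4. With 4 tumours such orders describe these arrays only.

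Kynurenine and kynurenic acid are ligands of the aryl hydrocarbon receptor, and 4 of the 9 genes of that list were expressed. Cyp1b1, a cytochrome P450 that the receptor induces, had the largest range among expressed list genes, 3.43 log2, at 10.96, 7.54, 9.33 and 7.62. It was highest in tumour 1, where Aadat was lowest. Tiparp, another target, measured 10.04, 9.91, 9.97 and 9.52. Ahr itself measured 8.35, 7.36, 7.62 and 8.48 on its brighter probe set, but its second probe set, under the filter, had a range of 0.33, so that difference is uncertain. Cyp1a1, the classical target, was under the filter and stayed between 4.44 and 4.57. Aldh3a1, an aldehyde dehydrogenase that the receptor also induces, was under the filter on average but above its level in tumour 1 alone. It measured 9.38, 6.21, 5.46 and 6.54, highest in tumour 1 as Cyp1b1 was. The fibroblast sum, like Cyp1b1, was highest in tumour 1 and next in tumour 3. In tumours 2 and 4 the order differed: the sum was 29769 and 12156, while Cyp1b1 was nearly equal at 7.54 and 7.62. The part of fibroblasts was not tested.

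Interferon-gamma is known to induce Ido1. Of 11 genes of that response 9 were on the array, 6 were expressed, and 2 had a range of 1 log2. Irf8, a factor of myeloid cells, measured 9.93, 9.29, 8.35 and 9.34, lowest in tumour 3 as most macrophage markers were. Cxcl9, a chemokine, measured 8.26, 8.84, 9.40 and 9.68, with the same order on its second probe set. Gbp2, a guanylate-binding protein, measured 10.33, 9.44, 10.09 and 10.30. In the list as a whole 6 of the 9 genes were highest in tumour 1, Irf8 and Gbp2 among them, and 29.9% of all named genes were. The lead of tumour 1 was only 0.03 log2 for Gbp2, 0.04 for Ciita and 0.09 for Ifngr1. Tumour 1 also had the highest array median (7.89 log2), so this count is uncertain. Ido1 stayed between 5.80 and 6.14 throughout, lowest in tumour 1.

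**Figure D4:**
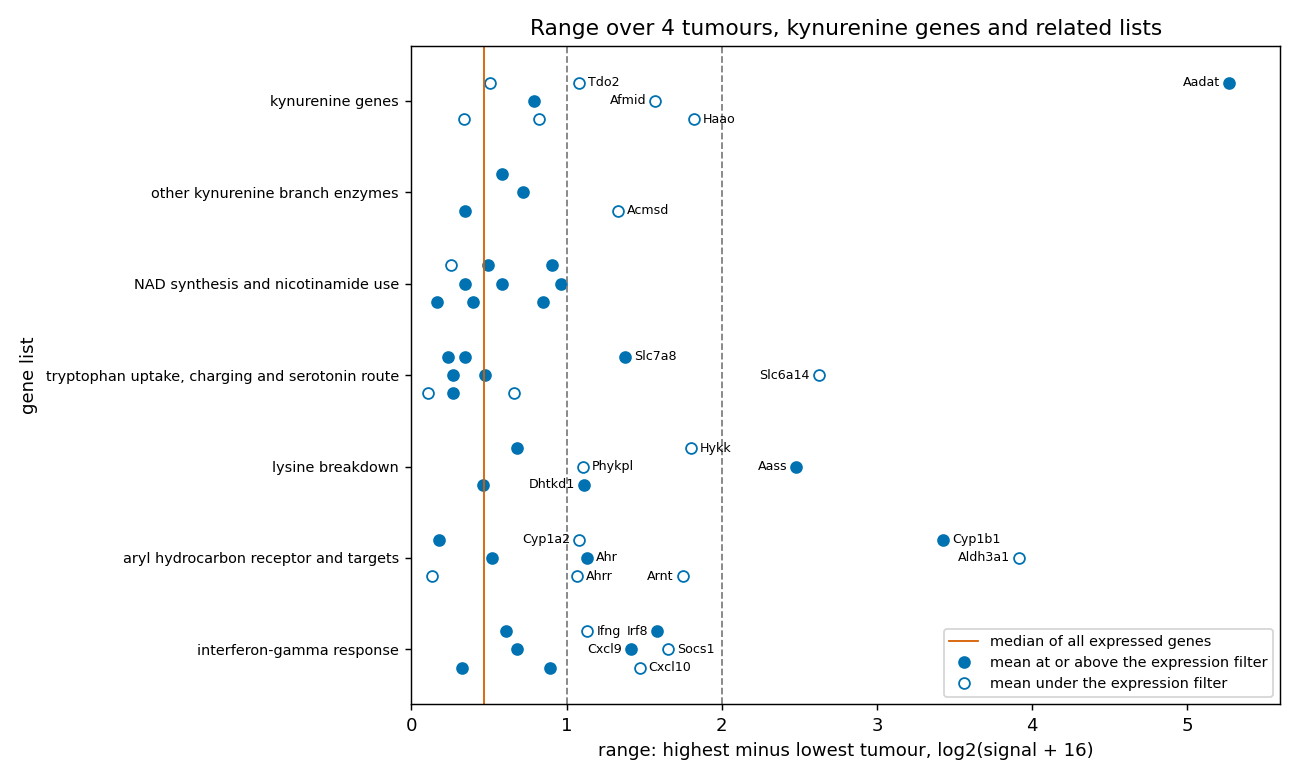
Each circle is 1 gene's range, the highest minus the lowest of 4 tumours in log2(signal + 16), for the 8 kynurenine genes and the 46 named genes of 6 related lists; filled circles are expressed genes, open circles lie under the filter, dashed lines mark 1 and 2 log2 and the solid line the median of all expressed genes (0.47). Aadat at 5.27 lies furthest right, and no gene of NAD synthesis reaches 1.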

How the data were processed

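The 4 mammary cancers were hybridised to 1 array each. The labels' protocols describe cDNA synthesis from 8 µg of total RNA with a T7 oligo-dT primer and biotin labelling by in vitro transcription, which favours the 3′ end of transcripts. The deposited table holds linear intensity values, 1 per probe set and tumour. How the authors corrected the background and scaled the arrays is not stated in the sources used here, and no detection call was used. Probe sets naming several genes (436) or none (9837, controls included) were left out, and all 8 gene identifiers matched RefSeq's table of GRCr8. Intensities were taken as log2(value + 16) without further scaling, and the brightest probe set stood for a gene. Python 3.11.15, pandas 2.3.3 and NumPy 2.4.6 were used. The calculation of ranges and calls was checked on simulated arrays, with large known differences in expressed genes and very little noise. That check covers the calculation only and gives no measure of error at weak signals.

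There is 1 group, so no test between groups was run, and only Dixon's outlier rule was applied. The number of arrays limits the precision. The 8 genes and the lists were chosen with earlier results of these tumours known. The text names the 8 genes, the 3 expressed genes of widest range in each related list and the 5 genes nearest to Aadat. Acmsd, Cyp1a1, Aldh3a1, Slc6a14, Ciita, Ifngr1, Alb, Ass1, Tat, Apoa1, Pgr, Gata3, Foxa1, Esr1, Cd163 and Itgam were picked after their values were seen. Ret is named because it entered the nearest genes with probe sets averaged. Alternatives were pseudocounts of 1 and 64, a median shift, quantile normalization, averaged probe sets, other filters and leaving out each tumour. Those for genes standing 1 log2 above all other tumours were added after seeing the data.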

Additional observations from a re-analysis of the deposited data

Results flagged for a closer look

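In 2 of 34 profiles examined, 1 tumour lay so far from the other 3 that its gap to the nearest passed Dixon's 95% limit for groups of 4, which chance passes in about 1 of 20 groups. One was the dimmest Afmid probe set, where tumour 4 (7.18 log2) was above tumours 1 to 3 (6.02 to 6.21) by a share of 0.836 of the whole range. The other was Slc7a5, where tumour 1 (9.33) was below tumours 2 to 4 (9.76 to 9.80) by a share of 0.909. A count of 2 among 34 is near the rate that chance gives, so nothing is read from it. The profiles were also chosen with values of these tumours known, so that rate is only a rough guide.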

How the results depend on the processing

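Over 14 results and their alternatives, 113 of 132 values kept their size within the limits used (1 SD between tumours for a range, 1.5 times for a count). The other 19 moved. A range or a count has no direction, so none could reverse. A pseudocount of 1 raised the range of Tdo2 to 1.94 and the members with a range of 2 log2 from 1 to 2, adding Haao (2.19). A pseudocount of 64 lowered Tdo2 to 0.46 and the members standing 1 log2 above all other tumours from 3 to 1. Without the filter, 3000 genes had a range of 1 log2, 567 one of 2 log2, and 18 list genes one of 1 log2; with the brighter 25% of probe sets these were 496, 96 and 0. Leaving out 1 tumour at a time gave ranges of 3.56 to 5.27 for Aadat, 0.18 to 0.82 for Kmo, 0.12 to 0.51 for Kynu, 0.11 to 0.34 for Ido1, 0.50 to 1.08 for Tdo2, 0.42 to 1.82 for Haao, 0.47 to 1.57 for Afmid and 0.50 to 0.79 for Qprt. It gave 3 to 4 members with a range of 1 log2, 1 with 2 log2, 2 to 3 standing above all other tumours, 540 to 958 and 91 to 199 expressed genes with 1 and 2 log2, and 2 to 7 list genes. Dropping a tumour can only narrow the range of a probe set. The cause of other changes was not tested. Weak signal limits what Ido1, Tdo2, Afmid, Kmo, Kynu and Haao can show. No paired analysis was possible because there is 1 group.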
